A study of Mus musculus with 12 samples.

Results

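Peritoneal macrophages given IL4 together with emodin were compared with vehicle-treated macrophages that received neither agent, which describes the state left when both act at once. All 4 arrays titled IL4 plus emodin and all 4 titled control were taken, 8 of the 12 arrays in the series, and every non-control probe was eligible. The cells came from wild-type C57BL/6 mice aged 8 weeks, and every group shared adherence to plastic, a wash that removed non-adherent cells, and serum-free culture overnight. The control group received vehicle, and the emodin group received IL4 at 10 ng/ml with emodin at 50 µM. The remaining group, 4 arrays with IL4 alone at 10 ng/ml, is quoted only for reference. The sample descriptions give 6 h of treatment and the protocol an overnight one, and which holds was not settled. Nothing in the labels tells whether each array carried RNA of 1 animal or of a pool, and the spread behind the p-values may therefore be partly technical. Macrophages are named in the sample labels, while the series text speaks of blood leukocytes.

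IL4 binds a receptor that activates the kinases JAK1, JAK3 and TYK2 and the transcription factor STAT6, and in macrophages this raises a set of genes known as alternative activation, among them *Arg1*, *Chil3*, *Retnla* and *Mrc1*. Emodin is a plant anthraquinone known as an inhibitor of several protein kinases. Because the comparison changes both agents, a gene can differ from control through either, and the IL4-alone arrays use the same controls. The differences of both treatments from control are therefore set side by side without a test of their likeness.

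Emodin was confounded with the slide. Control and IL4 arrays shared a slide and a scan, while all 4 emodin arrays lay on another slide, and the effects of slide and of emodin cannot be told apart. The 75th percentile of spot intensity was 633 to 810 on control arrays and 447 to 516 on emodin arrays, and the groups did not overlap (exact permutation test, two-sided, p = 0.0286, the smallest possible with 4 against 4). Probes well above background made up 50.2% ± 0.556 (SD, n = 4) on control arrays and 48.3% ± 0.960 (SD, n = 4) on emodin arrays (exact permutation p = 0.0286). Adenoviral E1A spike-in spots moved the other way, with a median log2 intensity of 11.1 ± 0.187 on control and 11.5 ± 0.0997 on emodin arrays (exact permutation p = 0.0286). The labelling protocol in the labels does not mention spike-ins, so it is unknown whether equal amounts were added. Of the macrophage markers, 10 were on the array and 9 lay well above background on all 8 arrays. Against the labels, probes of the Y-linked *Ddx3y*, *Kdm5d*, *Eif2s3y* and *Uty* were well above background on 0 of 12 arrays, 6 of which are labelled male, and both *Xist* probes were well above background on all 12. Labelled sex is therefore not used to split the results, apart from an interaction fit given at the end.

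Among 20824 genes, 13101 differed between the emodin and control arrays at an adjusted p below 0.05 (62.9% of genes tested), after each array was set to its 75th percentile. Of these, 7763 were higher (37.3%) and 5338 lower (25.6%). The balance depended on the scaling. Quantile scaling called 5575 genes higher (26.8%) and 6291 lower (30.2%), and spike-in scaling called 837 higher (4.02%) and 16068 lower (77.2%). Spike-in scaling moves the difference of every gene by the same amount, −0.98 on the log2 scale, so a gene that is higher by less than that with the 75th percentile turns lower. The median difference over all genes was 0.15 on the log2 scale with the 75th percentile, 0.01 with quantile scaling and −0.83 with spike-ins. A gene is called higher or lower under all 3 scalings below where each scaling called it in the same direction, which held for 837 higher genes (4.02%) and 5289 lower genes (25.4%). The spike-in shift deepens every fall, so a lower call could hardly be lost with that scaling, whereas a higher call had to exceed the shift. A lower call under all 3 scalings is therefore a much weaker requirement than a higher one. A total of 3853 genes were higher with the 75th percentile yet lower with spike-ins. Differences of 2-fold or more under all 3 scalings were found for 391 higher and 1836 lower genes. With the 75th percentile, 384 genes were at least 4-fold higher and 359 at least 4-fold lower.

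**Figure D1:**
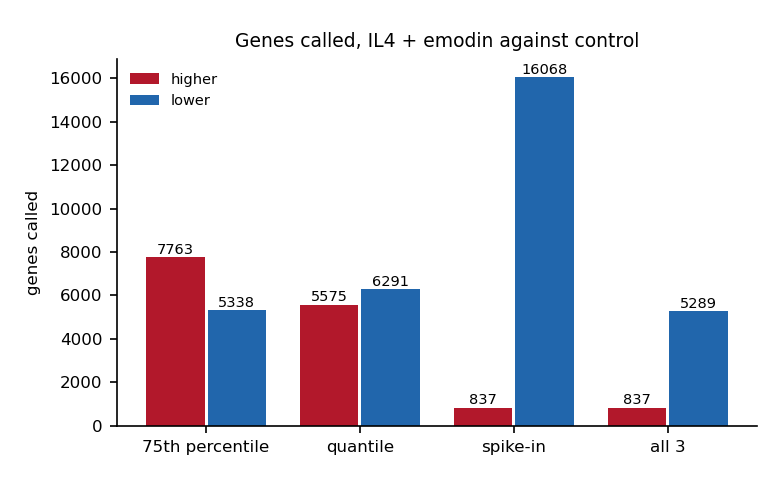
Number of genes (vertical axis) called higher (red) or lower (blue) on emodin than on control arrays under each scaling (horizontal axis) and under all 3 together, 4 arrays per group. The 5289 genes lower under all 3 scalings are close to the 5338 of the 75th percentile, while the higher calls drop from 7763 to 837.

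Levels below are log2 intensity minus the 75th percentile of the same array, and differences are emodin minus control on that scale with the limma standard error (n = 4 per group). Where no value for IL4 alone is given, how far that treatment shares a difference is not stated. Counts of each list are to be read against 37.3% higher and 25.6% lower over all genes. Under all 3 scalings these shares were 4.02% and 25.4%. Where all arrays of the dimmer group lay below the background limit, the difference is a bound, given as "at least" a fold on the same scale.

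Many alternative activation genes remained above control under emodin, a few markedly so, and others lay at or below control. Of 40 tested members, 19 were higher and 6 lower, and 9 and 6 under all 3 scalings. The list median was 0.86 (0.77 with genes below background at their bound), 0.58 with quantile scaling and −0.12 with spike-ins, against 2.53 for IL4 alone with the 75th percentile. *Arg1*, the arginase that hydrolyses arginine to ornithine and urea, read −0.10, 0.06, 0.83 and −0.18 on control arrays and 4.31, 4.20, 4.47 and 4.48 on emodin arrays. All emodin arrays lay above all control arrays, a difference of 4.21 ± 0.19 (limma adjusted p = 8.3e-09), beside 6.91 for IL4 alone. *Il4i1*, a secreted L-amino acid oxidase, read −0.92 to −0.31 on control arrays and 3.53 to 3.73 on emodin arrays. Its difference from control was 4.23 ± 0.12 with emodin and 4.25 with IL4 alone. *Tmem26*, a membrane protein gene, rose by 4.58 ± 0.15 (6.45 with IL4 alone). *Slc7a2*, a cationic amino acid transporter that imports arginine, rose by 3.34 ± 0.24 (4.96 with IL4 alone). *Pdcd1lg2*, which encodes the PD-1 ligand PD-L2, rose by 2.69 ± 0.11 (5.99 with IL4 alone). *Adipoq*, the adipokine adiponectin, was below background on all control arrays and at least 6.24-fold higher on emodin arrays.

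The classical markers did not share one direction. *Mrc1*, the mannose receptor, rose by 1.08 ± 0.22 with the 75th percentile (adjusted p = 0.0013) but differed by 0.10 with spike-ins, where it was not called. *Chil3*, a chitinase-like secreted protein, read 4.52, 6.95, 8.18 and 6.18 on control arrays and 6.01, 7.89, 8.96 and 7.52 on emodin arrays. The groups overlapped, and the difference of 1.14 ± 0.72 was not called (adjusted p = 0.18). Without control replicate 3 it was 1.71 and called (adjusted p = 0.0443). Each emodin array lay above the control array of the same number, and a fit with the replicate number as a block called *Chil3* higher. Whether the numbers pair the arrays was not settled. *Retnla*, a secreted resistin-like protein, spanned 1.13 to 5.74 on control arrays and −0.08 to 4.51 on emodin arrays. Its difference of −1.20 ± 1.04 was not called (adjusted p = 0.34), beside 2.35 for IL4 alone. With spike-ins *Retnla* was lower by −2.18 and called (limma adjusted p = 0.046). Each emodin array lay below the control array of the same number, and the block fit called *Retnla* lower. *Ccl24*, an eosinophil-attracting chemokine, differed by 0.41 ± 0.34 (adjusted p = 0.31), beside 3.09 for IL4 alone. With spike-ins *Ccl24* differed by −0.58 and was not called. Among the members lower under all 3 scalings, *Irf4*, a transcription factor of the interferon regulatory family, read −1.71 to −0.80 on control arrays and −2.97 to −2.80 on emodin arrays. It fell by 1.67 ± 0.16, whereas IL4 alone placed it 4.78 above control. *Dcstamp*, *Ppargc1b* and *Egr2* were named after their values were seen. *Dcstamp*, needed for macrophage fusion, fell by 2.76 ± 0.16, and *Ppargc1b*, a coactivator of mitochondrial gene expression, was at least 3.19-fold lower. *Egr2*, an early growth response transcription factor, fell by 0.87 ± 0.13, beside a level of 6.34 with IL4 alone against 4.74 to 5.13 on control arrays.

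**Figure D2:**
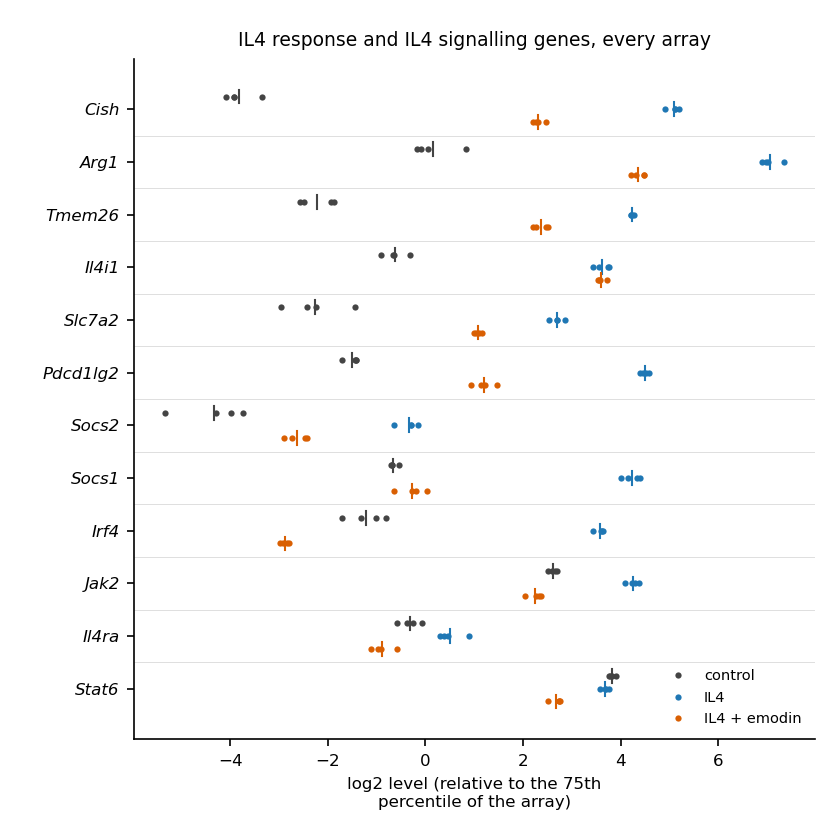
Log2 level, with the array's 75th percentile at 0 (horizontal axis), of 12 genes of the IL4 response and its signalling, with a point per array and a bar at each group mean, for control, IL4, and IL4 plus emodin (4 arrays each). Il4i1 lies together in both treated groups, Arg1 and Cish lie between control and IL4 alone under emodin, and Irf4, Jak2, Il4ra and Stat6 lie at or below control under emodin.

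In the IL4 receptor pathway itself, the feedback inhibitors *Cish*, *Socs2* and *Socs3* were higher, while *Stat6*, *Jak2* and the phosphatase gene *Ptpn6* were lower. Of 29 tested members, 12 were higher and 11 lower, and 3 and 11 under all 3 scalings. The median was 0.03 with the 75th percentile, −0.08 with quantile scaling and −0.95 with spike-ins. *Cish*, a feedback inhibitor of cytokine receptor signalling, read −3.92, −4.09, −3.92 and −3.34 on control arrays and 2.48, 2.26, 2.31 and 2.21 on emodin arrays. This difference of 6.13 ± 0.14 (adjusted p = 1.2e-10) was 5.15 with spike-ins, and IL4 alone gave 8.90. *Socs3*, another such inhibitor, read 1.21 to 1.54 on control and 3.71 to 4.16 on emodin arrays, a rise of 2.60 ± 0.11, beside 1.14 for IL4 alone. *Socs2* rose by 1.70 ± 0.28 at its brightest probe, with 2 of 4 control arrays above background, and its 3 probes ranged from 0.88 to 1.70. *Socs1*, the family member that blocks JAK kinases, read −0.71 to −0.54 on control and −0.64 to 0.03 on emodin arrays, so the groups overlapped. Its difference was 0.39 ± 0.13 (adjusted p = 0.023), turned to −0.59 with spike-ins, and lost its call without either of control replicates 3 and 4 or emodin replicates 2 and 4 (0.29 to 0.38). IL4 alone gave 4.88.

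*Stat6*, the transcription factor of the pathway, read 3.91, 3.79, 3.83 and 3.76 on control arrays and 2.73, 2.52, 2.77 and 2.73 on emodin arrays. Every emodin array lay below every control array, and the fall of 1.14 ± 0.08 was shared by its 3 probes, which ranged from −1.14 to −0.96. *Ptpn6*, the phosphatase SHP-1, fell by 2.22 ± 0.07, from 5.15 to 5.34 on control arrays to 2.96 to 3.21 on emodin arrays. *Jak2* fell by 0.37 ± 0.09, while IL4 alone gave a rise of 1.63. *Il4ra*, the receptor chain that binds IL4, differed by −0.57 ± 0.15 at its brightest probe, but the other probe gave 0.29, and their mean was not called (adjusted p = 0.341).

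Neutrophil-attracting chemokines were among the largest rises. Of 25 tested inflammatory cytokine and mediator genes, 13 were higher and 3 lower, and 4 and 3 under all 3 scalings, with a median of 0.60, 0.51 with quantile scaling and −0.38 with spike-ins. *Cxcl2* read −1.91, −2.02, −2.08 and −2.22 on control arrays and 2.49, 3.00, 2.45 and 3.07 on emodin arrays. The groups lay far apart, with a rise of 4.82 ± 0.22 (adjusted p = 7e-09), where IL4 alone gave −1.21. *Cxcl1* rose by 3.95 ± 0.41, and *Cxcl3*, below background on all control arrays, was at least 6.40-fold higher. *Ptgs2*, the inducible cyclooxygenase, was at least 11.1-fold higher, with a mean of −1.10 on emodin arrays and −2.58 with IL4 alone. *Ccl12*, a monocyte-attracting chemokine, was at least 17.5-fold higher, with means of −0.56 and −1.83. Both were above background on all 4 arrays with IL4 alone. *Tnf* read 1.52 to 1.88 on control and 1.75 to 2.43 on emodin arrays, and its difference of 0.32 ± 0.16 was not called (adjusted p = 0.095). It was −0.66 with spike-ins, and without emodin replicate 3 it was 0.43 and called. *Il1b* was dim, at −4.15 to −3.96 on control arrays and below background on all emodin arrays, so no fold is given. *Csf1*, the macrophage growth factor, differed by −0.98 ± 0.15 at its brightest probe, but other probes reached 0.58 and the mean over probes was 0.05 and not called. *Il18* fell by 0.54 ± 0.13. *Csf1* and *Il18* were named after their values were seen.

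Of the 19 feedback genes of NF-kB, the transcription factor family behind many of these cytokines, 10 were higher and 3 lower, and 1 and 3 under all 3 scalings. *Tnfaip3*, the deubiquitinase A20, rose by 1.45 ± 0.12. *Nfkbie* and *Nfkbid*, inhibitors of the IkB family, fell by 2.12 ± 0.12 and 1.71 ± 0.08, and *Ikbke*, a kinase named after its values were seen, fell by 0.95 ± 0.09. The promoter of *Cxcl2*, the chemokine with the largest rise among those measured in both groups, is shown because it holds a kB motif (GGGA, any base, then TTTCC). The 250 bases before its start site were taken from RefSeq (GRCm38.p6, chr5:90903649-90903898, plus strand), with the motif match in capitals, its first base 97 bases before the start.

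Cxcl2: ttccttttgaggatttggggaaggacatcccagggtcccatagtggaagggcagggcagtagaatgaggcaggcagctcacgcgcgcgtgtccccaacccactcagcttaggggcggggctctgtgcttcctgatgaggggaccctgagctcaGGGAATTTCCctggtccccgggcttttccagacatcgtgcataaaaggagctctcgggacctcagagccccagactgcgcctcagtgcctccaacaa

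The motif, searched on both strands, occurred in 5 of 18 inflammatory genes that had a promoter window (*Il6*, *Csf1*, *Cxcl1*, *Cxcl2* and *Cxcl3*), and in 0.414% of all 27025 windows. A match describes letters only and is not evidence of binding.

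The remaining largest rises had varied roles. *Ankrd33b*, an ankyrin repeat gene, read 0.17 to 0.46 on control arrays and 5.50 to 6.06 on emodin arrays, a rise of 5.49 ± 0.12 at its brightest probe and 3.28 at another, where IL4 alone gave −0.41. *Mmp13*, a collagenase, read 0.38, 0.34, 0.92 and −0.39 on control and 4.93, 5.55, 4.92 and 6.11 on emodin arrays. It rose by 5.06 ± 0.30, beside 3.04 for IL4 alone. *Inhba*, the subunit of activin A, rose by 4.38 ± 0.24, from a mean of −0.75 on control arrays to 3.63 on emodin arrays (0.24 with IL4 alone). *Errfi1*, an inhibitor of EGF receptor signalling, rose by 4.29 ± 0.13 (1.02 with IL4 alone). *Hbegf*, a ligand of that receptor outside the largest 12, rose by 3.31 ± 0.29 (2.82 with IL4 alone). *Csrnp1*, a nuclear protein of the immediate early class, rose by 4.36 ± 0.15 (2.39 with IL4 alone). *Pla2g5*, a secreted phospholipase, rose by 4.18 ± 0.35 (2.08 with IL4 alone). *Rab15*, a small GTPase of endosomes, rose by 5.48 ± 0.32 at its brightest probe, beside 4.63 for IL4 alone, and by 1.38 at another. *Fam71a* was below background on all control arrays and read 1.82 to 2.35 on emodin arrays, at least 101-fold higher. *Tmem184a* was at least 37.8-fold and *Mfsd4b1* at least 17.4-fold higher by the same measure. Of 13176 genes with a symbol, 61 that were higher under all 3 scalings went from below background on every control array to above it on every emodin array. Another 165, lower under all 3 scalings, went the other way. These counts are to be read beside the 837 higher and 5289 lower genes under all 3 scalings among all 20824, and the emodin arrays were dimmer.

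**Figure D3:**
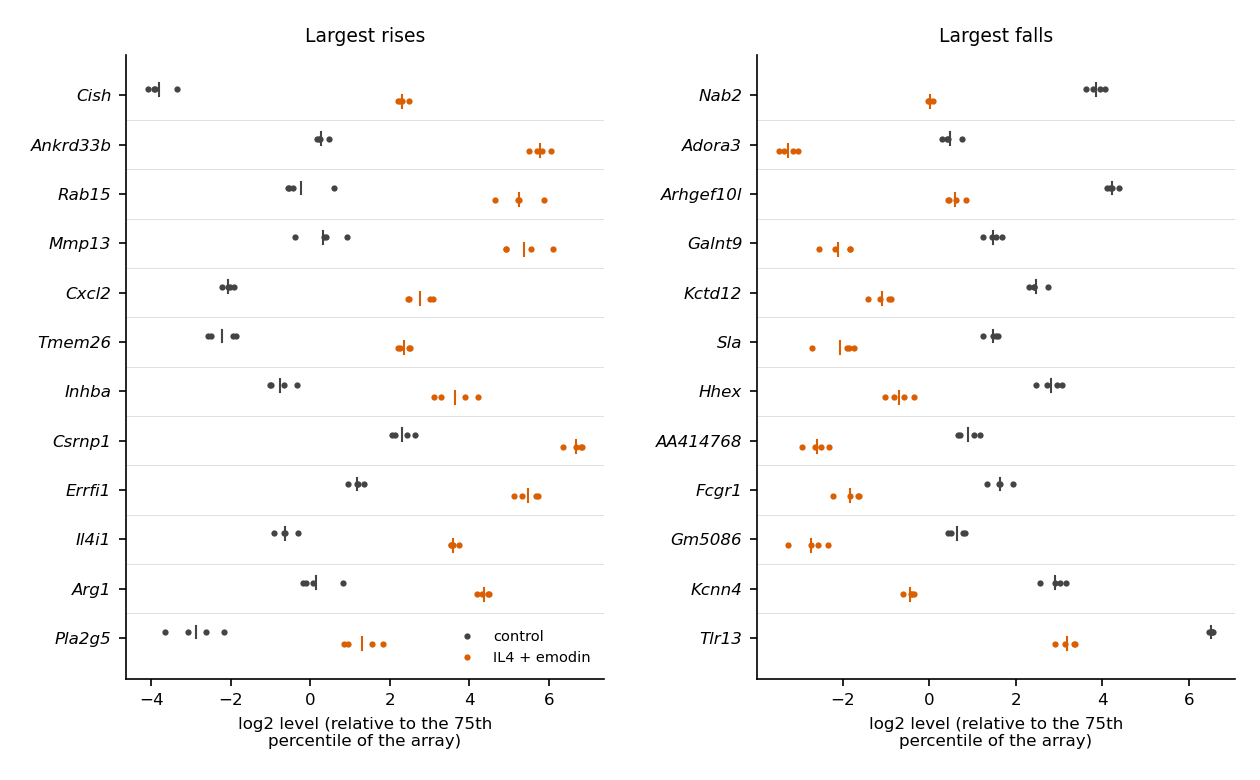
Log2 level, with the array's 75th percentile at 0 (horizontal axis), for the 12 largest rises (left) and 12 largest falls (right) among genes measured in both groups, with a point per array and a bar at each group mean, for control and IL4 plus emodin (4 arrays each). In every gene shown the groups do not overlap, from Cish with a rise of 6.13 to Tlr13 with a fall of 3.33.

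Replication-dependent histone genes, whose transcripts end in a stem-loop instead of a poly(A) tail and normally accompany DNA synthesis, were higher as a group. Of 42 tested members of this list, which also holds the replacement histone *H1f0*, 35 were higher and 2 lower, and 24 and 2 under all 3 scalings. The median was 1.81 (1.76 with genes below background at their bound), 1.56 with quantile scaling and 0.83 with spike-ins. *H2bc23* was below background on all control arrays and read −0.64, −0.48, −0.41 and −0.36 on emodin arrays, at least 18.6-fold higher. *H1f3* read −1.28 to −0.52 on emodin arrays and was at least 14.2-fold higher, and *H3c1* at least 8.07-fold. *H4c17* was measured in both groups, at −3.38 to −2.69 on control and 0.17 to 1.54 on emodin arrays, and rose by 3.83 ± 0.25. IL4 alone gave −0.61 for *H4c17*. The 2 lower members, named after their values were seen, were *H2bc21* at −2.15 ± 0.10 and *H2ac1* at −0.85 ± 0.09. Histone genes are near-identical copies, so probes may share signal between members.

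Promoter windows of *H2bc23* and *H1f3* are shown as the list members with the largest bounds, with CCAAT and TATAAA matches on either strand in capitals. They come from RefSeq (GRCm38.p6), chr13:21810200-21810449 on the minus strand for *H2bc23* and chr13:23554782-23555031 on the plus strand for *H1f3*, and are written in the direction of the gene.

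H2bc23: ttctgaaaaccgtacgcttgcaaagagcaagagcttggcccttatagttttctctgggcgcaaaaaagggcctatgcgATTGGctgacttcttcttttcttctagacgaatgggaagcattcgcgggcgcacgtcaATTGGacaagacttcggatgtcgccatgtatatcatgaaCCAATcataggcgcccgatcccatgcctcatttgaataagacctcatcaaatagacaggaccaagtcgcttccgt

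H1f3: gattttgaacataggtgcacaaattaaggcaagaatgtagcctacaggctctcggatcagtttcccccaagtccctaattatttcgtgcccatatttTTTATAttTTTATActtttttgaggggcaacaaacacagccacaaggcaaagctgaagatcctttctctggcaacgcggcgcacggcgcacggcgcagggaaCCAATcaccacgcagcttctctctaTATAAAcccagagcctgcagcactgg

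CCAAT occurred in 31 of 37 histone windows (83.8%), against 37.5% of all windows, and TATAAA in 20 of 37 (54.1%), against 14.3%. These shares describe the family's promoters, whatever the expression of its members.

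Cell cycle genes were more often lower than higher. Of 35 tested, 7 were higher and 14 lower, and 0 and 14 under all 3 scalings. *Cdk2*, the kinase of S-phase entry, fell by 1.71 ± 0.10, and *E2f2*, a transcription factor of the same step, by 2.35 ± 0.23. Long RNAs of the nucleus and hosts of small nucleolar RNAs showed more rises than falls, 11 and 2 of 17, and 7 and 2 under all 3 scalings. Their median was 1.01, 1.04 with quantile scaling and 0.03 with spike-ins. The host genes *Snhg15* and *Snhg1* rose by 2.55 ± 0.09 and 1.99 ± 0.13, and *Snhg5* by 2.01 ± 0.15. *Snhg16* rose by 2.73 ± 0.09 at its brightest probe and by 0.45 at another. *Snhg15* read 3.18 to 3.25 on control and 5.62 to 5.94 on emodin arrays, so the groups lay well apart. *Malat1*, an abundant nuclear RNA, rose by 1.61 ± 0.12, while *Snhg3* and *Mir17hg*, the host of a microRNA cluster, fell by 1.06 ± 0.09 and 0.86 ± 0.11. *Malat1*, *Snhg3* and *Mir17hg* were named after their values were seen. Among 22 SR proteins and CLK kinases, which control splicing, 12 were higher and 8 lower, and 2 and 8 under all 3 scalings. The kinases *Clk1* and *Clk4* rose by 1.49 ± 0.07 and 1.88 ± 0.09, and the splicing factor *Srsf3* fell by 1.32 ± 0.12 at its brightest probe and by 0.35 at another.

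Targets of p53, the transcription factor activated by DNA damage and other stress, were more often higher than lower. Of 26 tested, 19 were higher and 5 lower, and 10 and 5 under all 3 scalings, with a median of 0.94, 0.86 with quantile scaling and −0.04 with spike-ins. *Cdkn1a*, the inhibitor p21 of cyclin-dependent kinases, read 3.45, 3.38, 3.36 and 3.11 on control arrays and 5.95, 5.63, 5.70 and 5.57 on emodin arrays. The groups did not overlap, and *Cdkn1a* rose by 2.39 ± 0.11 at its brightest probe and by 1.5 at another. *Mdm2*, which targets p53 for degradation, rose by 1.78 ± 0.08 from a mean of 5.34 on control arrays to 7.12 on emodin arrays. *Gdf15*, a stress-induced secreted factor, rose by 3.51 ± 0.15, *Phlda3*, a repressor of AKT, by 3.17 ± 0.21, and *Gtse1* by 3.20 ± 0.12 with 3 of 4 control arrays above background. IL4 alone gave −0.82, −0.41 and −0.44 for these genes in turn. The 5 members lower under all 3 scalings, named after their values were seen, were *Tigar* (−1.58 ± 0.14), *Apaf1* (−1.29 ± 0.13), *Rrm2b* (−0.57 ± 0.17), *Btg2* (−0.55 ± 0.09) and *Xpc* (−0.33 ± 0.09). They include *Tigar*, a regulator of glycolysis, *Apaf1*, the core of the apoptosome, and *Xpc*, a DNA repair factor. In the BCL2 family of apoptosis regulators, 10 of 19 were higher and 6 lower, and 2 and 6 under all 3 scalings. Both members higher under all 3, *Bbc3* (1.42 ± 0.10) and *Pmaip1* (1.38 ± 0.10), encode pro-apoptotic BH3-only proteins, and both are known p53 targets. Other pro-apoptotic members fell, *Bmf* by 2.14 ± 0.26 and *Bid* by 1.54 ± 0.08.

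Regulators of MAP kinase signalling separated by member. Of 15 tested phosphatases and inhibitors, 8 were higher and 4 lower, and 5 and 4 under all 3 scalings, with a median of 0.62, 0.56 with quantile scaling and −0.36 with spike-ins. *Dusp10*, a phosphatase of p38 and JNK, read −1.99, −1.34, −1.74 and −1.39 on control arrays and 2.37, 2.68, 2.52 and 2.55 on emodin arrays. It rose by 4.14 ± 0.15, where IL4 alone gave −0.65. *Dusp4* rose by 3.04 ± 0.18, *Dusp8* by 2.24 ± 0.25 and *Dusp9* by 1.71 ± 0.17, and *Dusp5*, below background on control arrays, was at least 6.08-fold higher. *Dusp6*, the cytoplasmic phosphatase of ERK, read 1.75 to 2.63 on control and −0.61 to −0.41 on emodin arrays, and fell by 2.86 ± 0.16. *Spred2*, an inhibitor of the RAS to ERK pathway, was at least 5.05-fold lower, and *Spry2*, another, at least 1.23-fold lower. The change of *Dusp3* was small, at −0.24 ± 0.10 (adjusted p = 0.048) with overlapping groups, and the call was lost without any one of control replicates 1 and 4 or emodin replicates 1, 3 and 4 (−0.26 to −0.18). *Dusp3*, *Dusp5*, *Dusp8*, *Dusp9* and *Spry2* were named after their values were seen.

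Immediate early genes, which respond to such signals within minutes, were lower on balance. Of 23 tested, 6 were higher and 15 lower, and 3 and 14 under all 3 scalings, with a median of −0.44, −0.53 with quantile scaling and −1.42 with spike-ins. *Npas4*, a transcription factor of this class, read 0.84, 0.17, 0.44 and −0.02 on control arrays and was below background on all emodin arrays, at least 20.1-fold lower. *Nab2*, a corepressor of EGR factors that is not on this list, read 3.62 to 4.06 on control and −0.04 to 0.08 on emodin arrays. It fell by 3.84 ± 0.10 at its brightest probe and by 2.63 at another. *Ier2* was above background on 1 of 4 emodin arrays and fell by 3.17 ± 0.60. The members higher under all 3 scalings were *Csrnp1*, *Maff*, a small MAF transcription factor (2.02 ± 0.12), and *Ier3* (1.63 ± 0.15), named after its values were seen. Their differences with IL4 alone were 2.39, 1.06 and 3.68 in turn.

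Receptors with which macrophages sense microbes were lower. Of 20 tested toll-like receptor and adaptor genes, 5 were higher and 15 lower, and 1 and 15 under all 3 scalings, against the 4.02% and 25.4% of all genes. The median was −1.31 (−1.20 with genes below background at their bound), −1.39 with quantile scaling and −2.29 with spike-ins. *Tlr13*, an endosomal receptor of bacterial ribosomal RNA, read 6.56, 6.47, 6.54 and 6.53 on control arrays and 2.90, 3.35, 3.13 and 3.38 on emodin arrays. This fall of 3.33 ± 0.11 stood beside −1.93 for IL4 alone. *Tlr1*, which pairs with TLR2 to bind lipopeptides, fell by 2.87 ± 0.13, and the genes for TLR4 (*Tlr4*, the lipopolysaccharide receptor) and TLR2 (*Tlr2*), both named after their values were seen, by 1.92 ± 0.09 and 1.43 ± 0.12. *Tlr8* was at least 1.90-fold lower. *Tlr3* read above background on 1 of 4 emodin arrays, and its groups overlapped. The member higher under all 3 scalings, *Ticam1*, the TRIF adaptor, rose by 1.57 ± 0.12, and was named after its values were seen.

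Receptors for chemoattractants and nucleotides showed the same balance, with 5 of 24 higher and 15 lower, and 1 and 15 under all 3 scalings. The median was −0.98 (−0.91 with genes at their bound), −1.04 with quantile scaling and −1.96 with spike-ins. *Adora3*, the A3 adenosine receptor, read 0.29 to 0.74 on control arrays and −3.49 to −3.04 on emodin arrays. It fell by 3.73 ± 0.12, beside −1.09 for IL4 alone. *P2ry6*, the UDP receptor, fell by 2.91 ± 0.13, whereas IL4 alone gave 0.68. The complement C5a receptors *C5ar1* and *C5ar2* fell by 1.96 ± 0.17 and 2.26 ± 0.11, beside −1.41 and −0.42 for IL4 alone. *Ccr2*, the receptor for CCL2, was at least 2.01-fold lower, *Fpr2*, a formyl peptide receptor, at least 2.28-fold, and *Cx3cr1*, the fractalkine receptor, at least 1.49-fold. With IL4 alone, *Fpr2* and *Cx3cr1* were likewise above background on 0 of 4 arrays, and *Ccr2* on all 4. *Cx3cr1* was named after its values were seen.

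Among Fc receptors for immunoglobulin G, *Fcgr1* and *Fcgr3* were lower and *Fcgr2b* higher. The activating receptor *Fcgr1* read 1.94, 1.61, 1.34 and 1.63 on control arrays and −1.65, −1.83, −2.22 and −1.62 on emodin arrays, a fall of 3.46 ± 0.17. Another activating receptor, *Fcgr3*, fell by 0.88 ± 0.11. *Fcgr2b*, the inhibitory receptor, read 4.38 to 4.79 on control and 5.90 to 6.23 on emodin arrays and rose by 1.54 ± 0.11, beside 2.30 for IL4 alone. The small difference of *Fcgr4* (−0.25 ± 0.09, adjusted p = 0.025), named after its values were seen, lost its call without any one of control replicates 2 to 4 or emodin replicates 1 and 2 (−0.24 to −0.20). Of 7 tested Fc receptor genes, 1 was higher and 4 lower with the 75th percentile and under all 3 scalings. *Fcrl1*, a B cell Fc receptor-like gene, was at least 2.47-fold lower, and *Fcmr*, the IgM receptor that B cells also express, at least 6.14-fold. With IL4 alone, *Fcrl1* was also above background on 0 of 4 arrays, and *Fcmr* on all 4.

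B cell markers were lower with these receptors. Of 9 on the array, *Pax5* and *Blk* were below background on all 8 arrays. The summed level of the 9, in units of the 75th percentile of the array, was 1.48 to 2.83 on control and 0.589 to 0.795 on emodin arrays. Of 6 tested, 5 were lower under all 3 scalings, among them *Cd79b*, a subunit of the B cell antigen receptor, by 2.03 ± 0.25, and *Ms4a1*, which encodes CD20, by 2.10 ± 0.48 with 1 of 4 emodin arrays above background. The part of B cells in the falls of *Fcrl1* and *Fcmr* was not tested, and in bulk RNA fewer cells of a type and less RNA per cell cannot be told apart. The summed macrophage markers lay at 658 to 670 on control and 667 to 790 on emodin arrays, with 1 of 10 higher and 3 lower. Summed T cell markers lay at 84.6 to 104 on control and 165 to 192 on emodin arrays, with *Cd3d*, *Cd3g* and *Cd8a* below background on all 8. *Il7r*, the interleukin 7 receptor, made up most of that sum and was the 1 higher of 6 tested (0.99 ± 0.09, and 0.0045 with spike-ins), with 0 lower. Neutrophil markers summed to 26.4 to 39.4 and 36.5 to 58.8, with *Ngp* below background on all 8, and 2 of 4 tested were higher and 1 lower. The neutrophil elastase gene *Elane* was higher by 0.89 ± 0.24 (−0.09 with spike-ins), while *S100a8* fell by 0.74 ± 0.19 and was lower under all 3 scalings. The part of these cell types in any result was not tested. Mesothelial and fibroblast markers summed to 20.9 to 89.1 on control and 29.4 to 128 on emodin arrays with 1 of 13 higher, dendritic cell markers to 120 to 175 and 166 to 214 with *Xcr1* below background on all 8, and mast cell markers to 0.810 to 2.25 and 1.07 to 2.83 with *Ms4a2* below it. Most of the dendritic sum came from 1 gene that was not called. Of 5 tested dendritic markers 1 was higher and 0 lower. Of 6 mast cell markers *Kit* was the 1 higher, with 0 lower. Both rises held under all 3 scalings. Eosinophil markers summed to 1.40 to 1.58 on control and 1.02 to 1.13 on emodin arrays, with *Epx*, *Prg2* and *Prg3* below background on all 8. Of 4 tested, 1 was higher and 2 lower, the latter under all 3 scalings, with *Siglecf*, a surface lectin, down by 0.68 ± 0.12. Erythroid markers summed to 0.173 to 0.235 and 0.246 to 0.308, with *Hbb-bt* and *Alas2* below background on all 8. *Il7r*, *Elane*, *S100a8* and *Siglecf* were named after their values were seen.

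Genes that mark resident peritoneal macrophages changed in both directions. Of 30 tested, 10 were higher and 7 lower, and 1 and 7 under all 3 scalings, shares near the 4.02% and 25.4% of all genes. The median was 0.34 (0.28 with genes at their bound), 0.24 with quantile scaling and −0.64 with spike-ins. The member higher under all 3 was *Rxra*, a nuclear receptor, at 2.81 ± 0.11 for its brightest probe and −0.07 at another. Among the lower members, *Icam2*, an adhesion molecule of these cells, fell by 1.74 ± 0.11, *Maf*, a transcription factor of resident macrophages, by 1.64 ± 0.17, and *Klf2* by 1.39 ± 0.14. Other large falls had no common role. *Arhgef10l*, a guanine nucleotide exchange factor, fell by 3.63 ± 0.10, *Hhex*, a homeobox factor, by 3.49 ± 0.16, and *Kcnn4*, a calcium-gated potassium channel, by 3.35 ± 0.12. *Galnt9*, an O-glycosylating enzyme, fell by 3.58 ± 0.16, *Kctd12* by 3.57 ± 0.14, and *Sla*, an adaptor that dampens receptor signalling, by 3.52 ± 0.19. *AA414768* and *Gm5086*, genes with no assigned function here, fell by 3.49 ± 0.14 and 3.37 ± 0.17. *Cbx8*, a Polycomb protein, was at least 8.97-fold and *Gpr85*, an orphan receptor, at least 4.98-fold lower. *Kctd12* read 2.31 to 2.73 on control and −1.41 to −0.90 on emodin arrays, and IL4 alone gave 0.25.

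Most interferon-stimulated genes were lower, and interferon regulatory factors changed in both directions, with more of them lower. Of 37 tested interferon-stimulated genes, 2 were higher and 25 lower, and 0 and 23 under all 3 scalings, with a median of −0.65, −0.69 with quantile scaling and −1.63 with spike-ins. *Igtp*, an immunity-related GTPase, read 2.63, 2.80, 2.73 and 2.66 on control arrays and 0.92, 0.91, 1.08 and 0.85 on emodin arrays. It fell by 1.76 ± 0.07 without overlap, and *Ifi47*, of the same family, by 1.61 ± 0.14. *Cmpk2*, a mitochondrial nucleotide kinase, fell by 3.16 ± 0.13, and *Gbp7*, a guanylate-binding protein, by 2.21 ± 0.19, each with 3 of 4 emodin arrays above background. IL4 alone gave −0.10, 0.26, −0.20 and 0.78 for these genes in turn. Of 9 interferon regulatory factors, 2 were higher and 5 lower, and 0 and 5 under all 3 scalings, with a median of −0.86, −1.04 with quantile scaling and −1.84 with spike-ins. Beside *Irf4*, the falls were *Irf2* (1.22 ± 0.13), *Irf5* (1.20 ± 0.10), *Irf9* (1.10 ± 0.07) and *Irf3* (0.86 ± 0.09, named after its values were seen). *Irf9* is the DNA-binding part of the complex that interferon activates, and *Irf5* acts below toll-like receptors.

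Genes of cholesterol synthesis were lower almost throughout. Of 26 tested, 2 were higher and 21 lower, and 0 and 21 under all 3 scalings, with a median of −1.22, −1.31 with quantile scaling and −2.20 with spike-ins. *Idi1*, the isopentenyl diphosphate isomerase, read 4.86, 5.04, 5.17 and 4.72 on control arrays and 1.59, 2.02, 2.17 and 2.33 on emodin arrays. The groups did not overlap, and *Idi1* fell by 2.92 ± 0.15, where IL4 alone gave −0.38. *Stard4*, a cholesterol transfer protein, fell by 2.81 ± 0.11 (1.77 at another probe), and *Cyp51*, the lanosterol demethylase, by 2.67 ± 0.18. *Hmgcs1*, which makes HMG-CoA, read 5.99 to 6.44 on control and 4.10 to 4.31 on emodin arrays and fell by 1.96 ± 0.11. *Scap*, the sterol sensor that escorts SREBP factors, was higher by 0.48 ± 0.08 but differed by −0.51 with spike-ins, and was named after its values were seen.

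The promoters of *Hmgcs1* and *Idi1* are printed for this group, with matches to CCAAT and to TCACNCCAC, a form of the sterol regulatory element, in capitals on either strand. They come from RefSeq (GRCm38.p6), chr13:119690101-119690350 and chr13:8885356-8885605, both on the plus strand.

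Hmgcs1: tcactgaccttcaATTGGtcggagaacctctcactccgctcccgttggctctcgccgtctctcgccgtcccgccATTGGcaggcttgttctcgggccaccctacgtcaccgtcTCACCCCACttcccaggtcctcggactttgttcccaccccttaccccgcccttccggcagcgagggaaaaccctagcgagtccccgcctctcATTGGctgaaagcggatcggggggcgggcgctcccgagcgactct

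Idi1: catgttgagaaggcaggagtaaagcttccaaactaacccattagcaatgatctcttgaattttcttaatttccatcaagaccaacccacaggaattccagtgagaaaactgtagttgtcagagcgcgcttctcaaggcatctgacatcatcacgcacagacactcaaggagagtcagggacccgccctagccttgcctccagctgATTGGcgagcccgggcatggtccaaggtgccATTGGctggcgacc

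CCAAT occurred in 16 of 18 windows of this list (88.9%), against 37.5% of all windows, and TCACNCCAC in 1 of 18 (*Hmgcs1*), against 1.22%. Other forms of the sterol element were not searched, so the count says only that these letters are absent from the other windows.

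Fatty acid synthesis genes were called in the lower direction alone. Of 15 tested, 0 were higher and 6 lower under the 75th percentile and under all 3 scalings, with a median of −0.31, −0.43 with quantile scaling and −1.29 with spike-ins. *Fasn*, the fatty acid synthase, read −1.98 to −1.18 on control arrays and was below background on all emodin arrays, at least 5.52-fold lower. *Scd2*, a stearoyl-CoA desaturase, read 6.19, 5.89, 6.37 and 5.53 on control and 2.53, 3.05, 3.38 and 3.19 on emodin arrays, and fell by 2.96 ± 0.20. *Elovl6*, an elongase, fell by 3.07 ± 0.22, and *Acaca*, which makes malonyl-CoA, by 0.80 ± 0.13 at its brightest probe. A list of LXR receptors, their partners and targets and sterol efflux genes had 8 higher and 3 lower of 18, and 1 and 3 under all 3 scalings, and its 1 higher member under all 3 was again the receptor *Rxra*. In fatty acid oxidation 10 of 26 were higher and 6 lower, and 0 and 6 under all 3 scalings. These shares lie near those of all genes (37.3% and 25.6%, and 4.02% and 25.4% under all 3). *Acadm*, a mitochondrial dehydrogenase, fell by 1.49 ± 0.09.

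**Figure D4:**
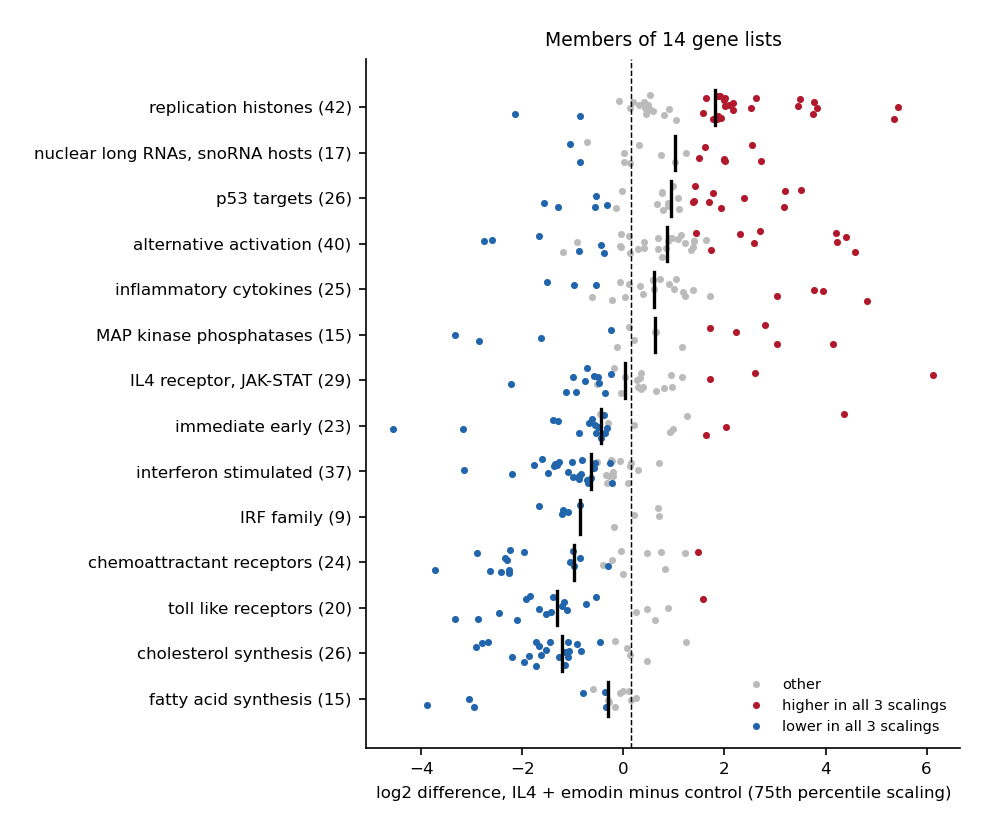
Log2 difference, IL4 plus emodin minus control with 75th percentile scaling (horizontal axis), of each tested member of 14 gene lists (number of members in brackets), coloured where the call held under all 3 scalings; for members below background in a group the plotted value is the fitted difference and not a bound. Black bars are list medians, from 1.81 for histones to −1.31 for toll-like receptors, and the dashed line is the median of all genes, 0.15.

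Several groups had medians above 0 but smaller than the uniform spike-in shift of −0.98, so their sign turned with that scaling. Of 75 cytosolic ribosomal protein genes, 74 were higher and 0 lower with the 75th percentile, but 0 and 0 under all 3 scalings. Their median was 0.70, 0.05 with quantile scaling and −0.29 with spike-ins. *Rpl24* read 8.70 to 9.07 on control and 9.65 to 10.21 on emodin arrays, a difference of 0.97 ± 0.14 that became −0.01 with spike-ins, and *Rpl9* gave 0.89 ± 0.13 and −0.09. Lysosomal genes gave 28 higher and 2 lower of 33, and 0 and 2 under all 3 scalings, with medians of 0.62, 0.09 and −0.36. *Psap*, the precursor of saposins, was higher by 1.05 ± 0.10 but by 0.07 with spike-ins. For oxidative phosphorylation 26 of 54 were higher and 3 lower, and 0 and 3 under all 3 scalings, and the median was 0.27, −0.08 with quantile scaling and −0.71 with spike-ins. *Atp5b*, a subunit of ATP synthase, gave 0.79 ± 0.10 and, with spike-ins, −0.19. *Sdhd*, a subunit of succinate dehydrogenase, fell by 0.66 ± 0.10 and differed by −0.92 with quantile scaling. The spike-in shift could only deepen that fall. The reference genes moved too. *Actb* gave 0.56 ± 0.07 with the 75th percentile, −0.18 with quantile scaling and −0.42 with spike-ins, and *Gapdh* 0.40 ± 0.12, −0.31 and −0.58. *Gapdh* was not called without replicate 4 of every group (0.29, adjusted p = 0.0952). The direction of *Actb*, *Gapdh* and the ribosomal protein genes was therefore not settled by these arrays.

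The gap between the 75th percentile and quantile scaling differed with the mean level of the genes, while the gap to spike-in scaling was the same at every level. With genes cut by mean level over the control and emodin arrays into 5 bins of equal size, the median difference with the 75th percentile was 0.20 and 0.14 in the 2 dimmest bins, within 0.03 of 0 in the next pair, and 0.38 in the brightest. With quantile scaling every bin lay between −0.02 and 0.04, and with spike-ins between −0.98 and −0.60. The share of genes called higher with the 75th percentile was 57.8% in the brightest bin and 30.2% to 33.8% in the others.

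Stress responses were mixed. Of 25 genes of the integrated stress response, which follows amino acid shortage or protein misfolding, 14 were higher and 3 lower, and 5 and 2 under all 3 scalings. *Ddit4*, an inhibitor of mTORC1, read −0.01 to 0.80 on control and 2.59 to 2.96 on emodin arrays and rose by 2.36 ± 0.17. *Ppp1r15a*, which restores translation, rose by 1.96 ± 0.09, and *Sesn2* and *Ddit3*, the factor CHOP, both named after their values were seen, by 1.70 ± 0.15 and 1.63 ± 0.16. *Slc7a11*, the cystine transporter, fell by 2.31 ± 0.19 with 2 of 4 emodin arrays above background. Endoplasmic reticulum chaperones and folding genes gave 8 higher and 7 lower of 22, and 1 and 7 under all 3 scalings. The 1 higher under all 3 was *Ern1*, the sensor IRE1, which rose by 2.58 ± 0.15. *Hspa1a*, the inducible HSP70, rose by 2.48 ± 0.16, with 8 heat shock genes higher and 3 lower of 19, and 1 and 3 under all 3 scalings. Of 29 targets of NRF2, the factor of oxidative stress, 7 were higher and 10 lower, and 0 and 10 under all 3 scalings.

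Genes of arginine and polyamine metabolism were split, with 10 of 19 higher and 5 lower, and 4 and 5 under all 3 scalings. Beside *Arg1* and *Slc7a2*, *Arg2*, the mitochondrial arginase, read −2.28 to −1.59 on control and 1.44 to 1.67 on emodin arrays. It rose by 3.50 ± 0.16, beside 1.11 for IL4 alone. *Odc1*, which makes putrescine from ornithine, read 2.75, 2.90, 2.94 and 2.53 on control and 5.15, 5.35, 5.02 and 5.11 on emodin arrays, a rise of 2.38 ± 0.11 where IL4 alone gave 0.21. Costimulatory and checkpoint ligands gave 7 higher and 5 lower of 16, and 4 and 5 under all 3 scalings. *Tnfsf14*, the ligand LIGHT, was at least 4.70-fold higher, and *Cd274*, which encodes PD-L1 and was named after its values were seen, rose by 2.09 ± 0.18. *Cd80*, which binds CD28, and *Havcr2*, which encodes TIM-3, fell by 1.37 ± 0.14 and 1.95 ± 0.17 and were named in the same way, and *Tnfsf18*, the ligand of GITR, was at least 1.20-fold lower.

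Growth factors and matrix genes gave single large changes in both directions. Of 24 colony-stimulating and trophic factor genes, 12 were higher and 6 lower, and 2 and 6 under all 3 scalings. The lower share under all 3 lies near the 25.4% of all genes. *Kit*, the stem cell factor receptor, rose by 1.95 ± 0.14, while *Igf1r*, the receptor of IGF1, read −0.15 to 0.46 on control and −3.07 to −2.25 on emodin arrays and fell by 2.69 ± 0.18. *Tgfbr1*, a receptor of TGF-beta, fell by 1.70 ± 0.15 at its brightest probe and by 0.86 at another. Of 23 metalloproteinase and matrix genes, 10 were higher and 2 lower, and 2 and 2 under all 3 scalings. *Plaur*, the urokinase receptor, fell by 1.79 ± 0.11. *Itga4*, an integrin subunit, fell by 2.07 ± 0.19. Among 24 scavenger and efferocytosis genes, 9 were higher and 4 lower, and 2 and 4 under all 3 scalings. *Olr1*, an oxidised LDL receptor, rose by 2.81 ± 0.20 (2.01 with IL4 alone). *Itgb3*, an integrin subunit, rose by 1.95 ± 0.13 (1.57 with IL4 alone).

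Glycolysis genes gave 13 higher and 8 lower of 29, and 1 and 8 under all 3 scalings. The shares under all 3 lie near the 4.02% and 25.4% of all genes. *Hk2*, a hexokinase, rose by 1.47 ± 0.09, beside 1.38 for IL4 alone. *Slc16a3*, which exports lactate, fell by 1.65 ± 0.07 at both of its probes, beside −0.55 for IL4 alone. Of 11 genes of the aryl hydrocarbon receptor pathway, 3 were higher and 3 lower, and 2 and 3 under all 3 scalings. The receptor *Ahr* rose by 1.51 ± 0.09 at its brightest probe, beside 1.67 for IL4 alone, and by 2.15 at another. Its target *Tiparp* rose by 1.28 ± 0.12, and its repressor *Ahrr* was at least 3.38-fold lower. Among 16 clock genes 9 were higher and 3 lower, and 4 and 3 under all 3 scalings. The rises included the repressors *Nr1d1* (2.50 ± 0.31, 1 of 4 control arrays above background) and *Nfil3* (1.87 ± 0.10). Their differences with IL4 alone were 0.15 and 2.79.

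Of 17 histone deacetylases and partners, 1 was higher and 8 lower, and 0 and 8 under all 3 scalings, with *Hdac1* down by 1.33 ± 0.08 from 4.74 to 4.92 on control arrays to 3.38 to 3.63 on emodin arrays. Of 315 zinc finger genes of the numbered Zfp series, 80 were higher and 136 lower, and 6 and 136 under all 3 scalings, with a median of −0.21, −0.26 with quantile scaling and −1.19 with spike-ins. *Zfp229* and *Zfp248* were at least 4.96-fold and 3.92-fold lower. Genes of RNA polymerase II and its elongation gave 15 higher and 7 lower of 31, and 0 and 7 under all 3 scalings, shares near those of all genes (4.02% and 25.4%). *Ccnh*, the cyclin of the CDK-activating kinase, fell by 2.49 ± 0.12, the lowest value of the list, while the highest was a rise of 1.12. *Hexim1*, an inhibitor of the elongation factor P-TEFb, gave 0.04 ± 0.08 without a call (limma adjusted p = 0.73) and −0.95 with spike-ins.

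Further lists are given with their calls under all 3 scalings in brackets, to be read against 4.02% higher and 25.4% lower over all genes. MHC class II genes gave 2 higher and 2 lower of 12 (0 and 2 under all 3), MHC class I genes 10 and 2 of 17 (1 and 2), and proteasome subunits 14 and 2 of 31 (0 and 2). Complement genes gave 3 and 4 of 21 (0 and 4), iron handling genes 7 and 2 of 19 (0 and 2), and genes of IL1 and the inflammasome 8 and 7 of 20 (1 and 7). Polycomb repressive complex 2 genes gave 9 higher and 1 lower of 14 (0 and 1), complex 1 genes 8 and 4 of 20 (1 and 4), and mRNA decay factors 13 and 4 of 29 (1 and 4).

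The difference between emodin and control arrays was also fitted separately by labelled sex, which the Y-linked and *Xist* probes contradict for the arrays labelled male. No gene was called for an interaction (0 by limma, with 434 of 20824 at an unadjusted p below 0.05, and also 0 with quantile and spike-in scaling). Without the filter on dim probes 5 genes were called.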

How the data were processed

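RNA of mouse peritoneal macrophages was read on 12 one-colour Agilent arrays. The scanner files hold spot intensity with background subtracted within the array by Agilent Feature Extraction 10.7.3.1, per the file headers. A deposited table holds log2 values, quantile-normalized by the authors and centred on each probe's median, which was found by recomputing it, since its scale is not stated. It served as an alternative.

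Control spots, outlier spots and 165 probes with no usable spot on some array were left out. Gene symbols came from matching transcript identifiers to the RefSeq gene table (GRCm38.p6). This named 27509 of 55681 probes with a single symbol. The main values were log2 intensity minus each array's 75th percentile. Quantile and spike-in scaling (7 E1A probes) were run beside it. Probes well above background on all 4 arrays of some group were kept (27640), with the brightest probe per gene, giving 20824 genes, of which 13176 had a symbol. A bound ("at least") sets the bright group's mean against the background limit of the dim group.

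Differences were fitted with limma 3.58.1 (R 4.3.3) as 3 group means over 12 arrays, with Benjamini-Hochberg adjustment over all genes and calls at 0.05. The fit was tested on simulated data. Lists are described by counts and medians only. Genes were named by rule: the 12 largest rises and falls called under all 3 scalings among symbols measured in both groups without overlap, the 6 largest bounds each way, up to 4 members per list, and a fixed set. Some genes that this rule took are left out here. The members, lists and rule were chosen with earlier results of these data known. Single array measures used exact permutation tests. The number of arrays limits precision. Alternatives were other background corrections, filters, probe rules, a replicate block, labelled sex, and leaving out arrays. Normexp was run on the median spot signal. A fit with slide as a block could not be made. Same-numbered control and emodin arrays correlated in their deviations at 0.0558 to 0.515, and control replicate 2 correlated best with emodin replicate 3, so the numbers were not taken to pair the arrays. Figures were drawn with Python 3.11.15 and matplotlib 3.10.9.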

Additional observations from a re-analysis of the deposited data

Results flagged for a closer look

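Among the 386 groups of 4 arrays examined for the genes named above, 26 held an array that lay apart from the other 3 by Dixon's criterion (a gap to the nearest array that takes up most of the group's range), where chance gives about 1 in 20. *Mki67* was not among the genes examined. Each value below is the log2 level of the array that lay apart, followed by the nearest other array.

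On control arrays these were *Pdcd1lg2* (−1.71, next −1.45), *Socs1* (−0.539, next −0.691), *Tnf* (1.52, next 1.82), *Ccl12* (−5.91, next −6.23), *Rab15* (0.596, next −0.432), *Mfsd4b1* (−5.3, next −4.97), *Mdm2* (5.25, next 5.36), *Bbc3* (3.5, next 3.87), *Dusp4* (0.441, next 1.07), *Hspa1a* (−1.8, next −1.33), *Fcgr4* (3.81, next 4.03), *Sesn2* (2.75, next 2.16), *Itga4* (2.48, next 1.82) and *Ahrr* (−2.02, next −2.37). The levels of *Ccl12* and *Mfsd4b1* on control arrays lie below the background limit.

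On emodin arrays these were *Stat6* (2.52, next 2.73), *Fam71a* (2.35, next 1.88), *Maff* (1.89, next 2.27), *Sla* (−2.72, next −1.9), *Gpr85* (−5.27, next −6.13), *Icam2* (1.36, next 1.09), *Fasn* (−4.03, next −5.85), *Elovl6* (−1.07, next −1.78), *Ern1* (1.95, next 2.25), *Cd79b* (−2.36, next −1.66), *Snhg3* (2.98, next 3.12) and *Acadm* (3.07, next 2.81). The levels of *Fasn* and *Gpr85* on emodin arrays lie below the background limit. In none of the called genes listed here other than *Socs1* and *Fcgr4* did leaving out a single array end the call.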

How the results depend on the processing

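Of 190 named genes, 165 kept their direction and side of the threshold under all 23 alternatives. Part of these genes were taken by a rule that required a call under all 3 scalings, so this share does not hold for genes at large. *Mki67* is not counted among the 190. Over all genes, 6975 of the 13101 calls with the 75th percentile did not hold under all 3 scalings. The count of called genes stayed within 1.5 times of 13101 except without the filter on dim probes (19814, of which 14462 higher); spike-in scaling gave 837 higher and 16068 lower. Without 1 replicate at a time the count ran from 11499 to 12718. The count of labelled-sex interactions was 0, or 5 without the filter. With spike-ins the sign turned for *Socs1* (−0.59), *Tnf* (−0.66), *Rpl24* (−0.0145), *Rpl9* (−0.0908), *Atp5b* (−0.19), *Scap* (−0.51), *Elane* (−0.0898), *Hexim1* (−0.95), *Gapdh* (−0.58) and *Actb* (−0.42). It also turned for *Ccl24* (−0.58), which neither scaling called. *Gapdh* was also lower with quantile scaling (−0.31), normexp with quantile (−0.27) and the deposited table (−0.31), and *Actb* likewise (−0.18, −0.12 and −0.18). *Spry2* gave 0.0197 after normexp with the 75th percentile, a dim gene, and *Csf1* 0.0489 as a mean over its probes, which disagree. After normexp the calls of *Il1b*, *Tlr8*, *Cx3cr1*, *Rrm2b* and *Tnfsf18*, all but *Rrm2b* below background on emodin arrays, were also lost. The cause of the other changes was not tested. With the replicate number as a block 14488 genes were called, 8600 higher and 5888 lower, and the block changed the calls of *Retnla* (adjusted p = 0.0312), *Chil3* (0.0218) and *Dusp3* (0.0608) alone among named genes. No fit with slide as a block was possible, since all emodin arrays lay on a slide of their own. Differences of genes below background in a group are limited by signal and are bounds.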
